A study of Rattus norvegicus with 16 samples.

Results

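The step from 3 h to 12 h in a time course of oxidative stress was measured in cultured slices of rat hippocampus, separately for the fields CA1 and CA3. Organotypic slices are thin pieces of hippocampus kept alive on a membrane, which retain neurons, astrocytes, oligodendrocytes and microglia in their layered arrangement. Total RNA of each field was amplified by 2 cycles of target labelling, labelled with biotin and hybridised to Affymetrix arrays. The comparison takes 8 of the 16 arrays of the series, chosen by their titles: 2 arrays of CA1 and 2 of CA3 at 3 h, and 2 of CA1 and 2 of CA3 at 12 h, called biological replicates 1 and 2. All 8 come from the stressed time course, and the arrays of T0 were not used; those of 30 min enter 1 alternative fit. Agent and dose, and the rats' strain and age, were not given in the sources used here. Nor do the sources say whether CA1 and CA3 of 1 time and number were cut from the same slices, or how many animals went into an array.

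CA1 and CA3 are successive fields of the hippocampal pyramidal layer: axons of CA3 pyramidal cells excite CA1 pyramidal cells. CA1 neurons are known to be the more easily killed by oxidative and ischaemic insults. Stressed hippocampal tissue typically goes through an early wave of immediate early transcription factors, a response to misfolded protein and amino acid shortage through the kinase PERK and the factor ATF4, and an inflammatory response of microglia, the resident macrophages of the brain.

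All values are log2 expression levels made by the authors, so a difference of 1 is a doubling. The change at a probe set (the group of probes that reads 1 transcript) was fitted with limma as 12 h minus 3 h, with region as a term and replicate number as a block. "Rose" and "fell" are used below for an adjusted p under 0.05, by Benjamini-Hochberg over all 15866 probe sets tested, and errors after ± are standard errors of the fitted change unless they are called SD. Of the 15866 probe sets, 619 (3.9%) rose and 346 (2.18%) fell, together 965 (6.08%), with 3719 at an unadjusted p under 0.05. With each gene read by 1 probe set, the one with the highest mean, 434 of 10411 genes rose (4.17%) and 274 fell (2.63%), 708 in all (6.8%). The counts given for gene lists below are to be read against these shares. All 708 moved the same way in CA1 and CA3, and in each of the 4 steps from 3 h to 12 h within 1 region and 1 replicate number, as 4151 of the 10411 genes did. Passing the test favours genes whose steps agree. More than 2-fold rises numbered 219 and more than 2-fold falls 97. All 4 arrays at 12 h lay above all 4 at 3 h for 551 genes (5.29%) and below them for 467 (4.49%). The median change of all genes was -0.06. The split toward rises depended on scaling: 64.1% of the calls were rises as deposited, 53.9% of 952 after quantile normalization and 51.9% of 1055 after cyclic loess.

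These calls carry limits that apply to every result below. Arrays of CA1 and CA3 with the same time and number shared their deviations (correlation 0.58 at 3 h and 0.57 at 12 h). Arrays of 1 region and number shared them between times as well (0.66 in CA1 and 0.51 in CA3). The replicate block takes out what all arrays of 1 number share. The 4 arrays of a time cannot be counted as 4 independent samples. When the 2 regions of each time and number were averaged first, leaving 4 values and 1 residual degree of freedom, no probe set passed (0 of 15866, smallest adjusted p = 0.167 with limma, 2802 at an unadjusted p under 0.05). Without the replicate block 40 passed (0.252%), 22 up and 18 down. Leaving out 1 array gave between 188 probe sets (without CA1 at 12 h, replicate 1) and 1303 (without CA1 at 3 h, replicate 1). All 965 kept their direction in every fit that left out 1 array. They were called on these same arrays, and passing favours steps that agree, so this is not separate support for their direction. The averaged fit and the fit without the block have the same estimated changes as the main fit. Their directions could not differ, so they are no check on direction.

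Replicate 1 of CA1 at 3 h stood apart, with the lowest mean level of the excitatory neuron markers. The mean level of 10 excitatory neuron markers was 5.80 on it, against 6.42 to 7.53 on the other 3 arrays at 3 h. Control spots moved with time as well. The mean of the added spike transcripts was 5.77 ± 0.336 (SD, n = 4) at 3 h and 4.74 ± 0.467 (SD, n = 4) at 12 h. The 3' minus 5' difference of the GAPDH control probes, which grows as RNA is degraded or shortened by amplification, was 2.87 ± 1.23 (SD, n = 4) at 3 h and 2.15 ± 0.954 (SD, n = 4) at 12 h, lower at 12 h in all 4 steps. With the spike mean as a further covariate 565 probe sets passed, 253 of them among the 965. With the GAPDH difference 63 passed, 20 of them among the 965, and 944 of the 965 kept their direction. The GAPDH difference also followed replicate number, at 1.292 to 1.985 on the first replicates and 2.925 to 3.928 on the second. Little of it is left once time and replicate number are in the fit. Changes fitted with this covariate are therefore imprecise, and the fit cannot tell RNA quality and time apart. The part of RNA quality in the results was not tested beyond these fits.

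**Figure D1:**
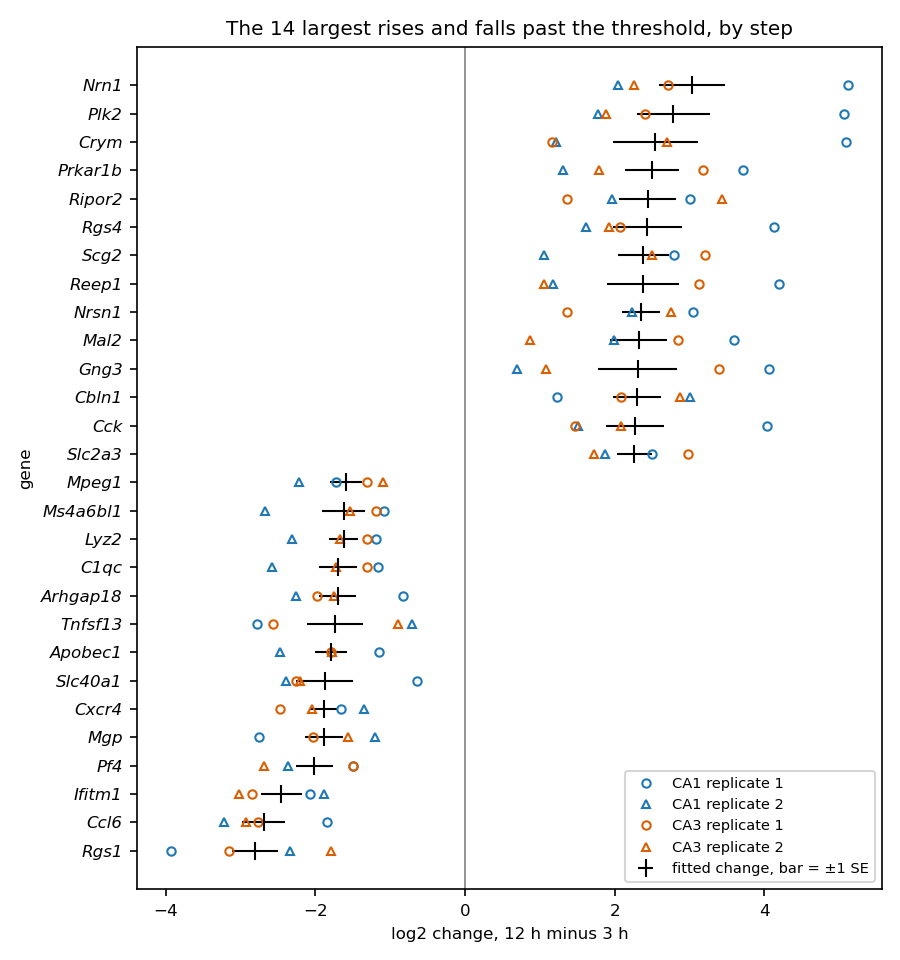
Log2 change from 3 h to 12 h (x axis) of the 14 genes with the largest rise and the 14 with the largest fall past the threshold (y axis). The black mark is the fitted change with ±1 SE, and the 4 coloured symbols are the steps within 1 region and 1 replicate number. Only genes with 1 sign in all 4 steps were taken, so the symbols of each gene lie on 1 side of 0 by that rule. The fitted changes run from 3.03 ± 0.44 for Nrn1 to -2.81 ± 0.31 for Rgs1.

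Most of the 14 largest rises were of genes known from neurons. Neuritin (Nrn1), an activity-induced membrane-anchored protein that promotes neurite growth, led them. Its log2 level was 4.78 and 7.13 in CA1 and 6.45 and 7.48 in CA3 at 3 h, against 9.90 and 9.17 in CA1 and 9.16 and 9.75 in CA3 at 12 h, replicate 1 first in each pair here and below. All 12 h arrays lay above all 3 h arrays, and replicate 1 of CA1 at 3 h was lowest. The change was 3.03 ± 0.44, 8.18-fold (adjusted p = 0.0111, limma). Nrn1 belongs to a list of 24 measured presynaptic and neurite growth genes, of which 17 rose, 1 fell and 23 had a change above 0, where 4.17% of all genes rose and 2.63% fell. The list's median change was 1.53, beside -0.06 over all genes.

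Syntaxin 1A (Stx1a), a membrane partner of the vesicle fusion machinery, read 4.65 and 5.31 in CA1 and 4.86 and 6.01 in CA3 at 3 h, against 6.58 and 6.90 in CA1 and 6.86 and 7.38 in CA3 at 12 h. Its lowest 12 h array was above its highest 3 h array, for a change of 1.72 ± 0.16 (adjusted p = 0.00455). Synaptobrevin 2 (Vamp2), the vesicle-side partner of syntaxin, rose by 1.84 ± 0.19 (adjusted p = 0.00604). Neurensin 1 (Nrsn1), a neuronal vesicle protein of growing neurites, rose 5.09-fold, by 2.35 ± 0.25 (adjusted p = 0.00617). Beta-III tubulin (Tubb3), the neuron-specific tubulin, rose by 1.40 ± 0.16 (adjusted p = 0.00617). The groups did not overlap for any of these 4. Other, dimmer probe sets of Stx1a, Vamp2 and Tubb3 had the opposite sign, at -0.30, -0.29 and -0.17, and did not pass. Sv2b, a synaptic vesicle glycoprotein, was the list's exception: it fell by 0.69 ± 0.16 (adjusted p = 0.0414), and with the GAPDH covariate its change was 0.08.

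The change of the presynaptic list was larger between the first replicates than between the second ones. Its mean level was 6.15 and 7.72 in CA1 and 7.09 and 8.49 in CA3 at 3 h, against 8.62 and 8.64 in CA1 and 8.91 and 9.24 in CA3 at 12 h. The 12 h arrays differed little among themselves, while the 3 h arrays spread over more than 2 log2 units and CA1 replicate 1 was lowest. The median step was 2.44 in CA1 and 1.65 in CA3 for replicate 1, and 0.78 and 0.77 for replicate 2. Without replicate 1 of CA1 at 3 h, 14 members rose and the median was 1.24. Over the fits that left out 1 array, 7 to 18 members rose, the fewest without replicate 1 of CA1 or of CA3 at 12 h. With the spike covariate 20 rose, and with the GAPDH covariate 3. When all probe sets of a gene were averaged, 15 rose and the median was 1.11.

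**Figure D2:**
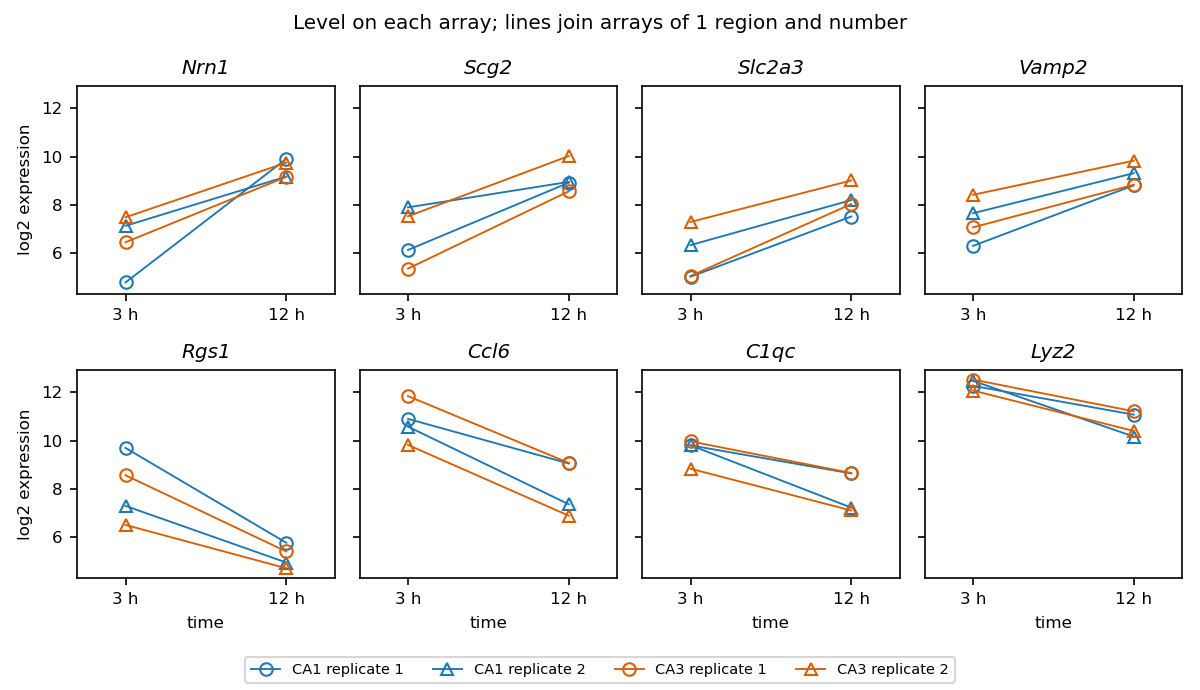
Log2 expression (y axis) of Nrn1, Scg2, Slc2a3 and Vamp2, which rose, and Rgs1, Ccl6, C1qc and Lyz2, which fell, on each of the 8 arrays at 3 h and 12 h (x axis), with lines joining the arrays of 1 region and 1 replicate number. The first 4 genes go up and the others down on all 4 lines; Nrn1 goes from 4.78 to 9.90 on its steepest line, that of CA1 replicate 1.

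Other genes among the 14 largest rises have known roles in neuronal signalling. The regulator of G protein signalling Rgs4 read 4.61 and 8.53 in CA1 and 6.87 and 7.95 in CA3 at 3 h, against 8.74 and 10.14 in CA1 and 8.95 and 9.88 in CA3 at 12 h, a rise of 2.44 ± 0.46 (adjusted p = 0.0246). A second probe set for Rgs4 passed in the same direction. Prkar1b, a regulatory subunit of protein kinase A that is enriched in brain, rose 5.64-fold, by 2.50 ± 0.36 (adjusted p = 0.0108). Gng3, a neuronal G protein gamma subunit, rose by 2.31 ± 0.53 (adjusted p = 0.0419). Crym, a thyroid hormone binding protein, rose by 2.54 ± 0.57 (adjusted p = 0.0402) with overlapping groups. Ripor2 rose by 2.44 ± 0.38 from a mean of 3.76 (adjusted p = 0.0132). Membrane proteins in this set were Reep1, which shapes the endoplasmic reticulum (2.38 ± 0.48, adjusted p = 0.0289), and Mal2, a transport protein (2.32 ± 0.38, adjusted p = 0.016). Cerebellin 1 (Cbln1), a secreted synapse organiser, rose by 2.30 ± 0.32 (adjusted p = 0.0102).

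Markers of excitatory neurons mostly moved the same way, with 4 of 10 measured markers risen, none fallen and a median change of 1.09. A change below 0 was seen for 2 of the 10. The median step was 1.87 and 0.76 in CA1 and 1.52 and 0.08 in CA3, so it was small in CA3 replicate 2. When all probe sets of a gene were averaged, the median change was 0.7. In bulk samples such as these, fewer cells of a type and less RNA per cell cannot be told apart. Neurogranin (Nrgn), a postsynaptic calmodulin-binding protein, read 6.24 and 8.55 in CA1 and 7.05 and 8.78 in CA3 at 3 h, against 9.58 and 10.13 in CA1 and 9.28 and 9.86 in CA3 at 12 h. Its groups did not overlap, and the change was 2.06 ± 0.32 (adjusted p = 0.0132). The vesicular glutamate transporters, which load glutamate into vesicles, rose by 1.83 ± 0.31 for Slc17a6 (adjusted p = 0.0173) and 1.56 ± 0.29 for Slc17a7 (adjusted p = 0.023). The fourth was cholecystokinin (Cck), at 2.27 ± 0.38 (adjusted p = 0.017), a peptide also made by interneurons. Between 1 and 6 of the markers rose when 1 array was left out, the fewest without replicate 1 of CA3 at 3 h, and 1 rose with the GAPDH covariate.

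Field markers were checked against the labels and mostly did not pass. None of 7 measured CA1 pyramidal markers passed, with a median change of 0.52 that was -0.21 with the GAPDH covariate. Their mean level was 4.62 and 5.49 in CA1 and 5.11 and 4.82 in CA3 at 3 h, against 6.70 and 6.58 in CA1 and 4.97 and 5.34 in CA3 at 12 h. At 12 h both CA1 arrays were above both CA3 arrays, as labelled, whereas at 3 h replicate 1 of CA1 was below both CA3 arrays. Mpped1, a CA1 marker, had the largest change of the 7, at 2.55 ± 0.72 (adjusted p = 0.0767), and Man1a1 stood at 0.52 ± 0.18 (adjusted p = 0.126). Of 7 CA3 markers 1 rose, neuronatin (Nnat), a small membrane protein of developing neurons, by 2.26 ± 0.38 (adjusted p = 0.017), and the list's median was 0.20. None of 10 interneuron markers passed (median 0.45, -0.19 with the GAPDH covariate). Gad1, the enzyme that makes GABA, stood at 0.71 ± 0.19 (adjusted p = 0.0636) and somatostatin (Sst) at 1.12 ± 0.40 (adjusted p = 0.134).

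Secreted neuronal proteins rose in part. Of 21 measured neuropeptide, granin and neurotrophic factor genes, 6 rose and 1 fell, with a median change of 0.57. Secretogranin II (Scg2), a packaging protein of dense-core vesicles and precursor of the peptide secretoneurin, read 6.13 and 7.90 in CA1 and 5.36 and 7.53 in CA3 at 3 h, against 8.92 and 8.95 in CA1 and 8.56 and 10.02 in CA3 at 12 h. Its 12 h arrays all lay above its 3 h arrays, a change of 2.38 ± 0.34 or 5.22-fold (adjusted p = 0.0108). The activin subunit Inhba, induced by activity in neurons, rose by 1.503 ± 0.24 (adjusted p = 0.0152). Prohormone convertase 2 (Pcsk2), which cuts peptide precursors, rose by 1.19 ± 0.21 (adjusted p = 0.0194). The 6 also held Bdnf (1.71 ± 0.36, adjusted p = 0.0345) and Vgf (1.03 ± 0.22, adjusted p = 0.0341), both named after their values were seen. Between 2 and 6 genes of the list rose when 1 array was left out, the fewest without replicate 1 of CA1 at 12 h or of CA3 at 3 h.

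Igf1, insulin-like growth factor 1, which microglia also make, was the only one of the 21 that fell. It read 9.82 and 9.80 in CA1 and 10.01 and 9.52 in CA3 at 3 h, against 8.56 and 7.53 in CA1 and 9.10 and 7.83 in CA3 at 12 h, with no overlap between times. The change was -1.53 ± 0.22, 2.89-fold lower at 12 h (adjusted p = 0.0108), and a second probe set for it passed in the same direction.

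Immediate early genes, the first transcripts that activity or stress induces, moved in both directions or not past the threshold. Of 41 measured, 6 rose and 1 fell, and the median change was 0.07. When 1 array was left out, 2 to 7 rose and the median lay between -0.03 and 0.14, below 0 without replicate 1 of CA1 at 3 h or at 12 h. Polo-like kinase 2 (Plk2), an activity-induced kinase that dampens excitatory synapses, had the largest rise among them. It read 4.80 and 8.42 in CA1 and 6.90 and 8.74 in CA3 at 3 h, against 9.87 and 10.20 in CA1 and 9.31 and 10.62 in CA3 at 12 h, with no overlap, for 2.78 ± 0.49 or 6.88-fold (adjusted p = 0.0183). The zinc finger factor Egr2 rose by 1.64 ± 0.27 (adjusted p = 0.0156), the AP-1 subunit Fosb by 1.39 ± 0.21 (adjusted p = 0.0125) and the stress gene Gadd45b by 1.01 ± 0.22 (adjusted p = 0.0359). The other two, Rheb at 0.93 ± 0.21 and Klf10 at 1.11 ± 0.26, were named after their values were seen. Ier3, a target of NF-kB that is also seen in glia, fell by 0.98 ± 0.18 (adjusted p = 0.0197). Fos, the prototype of the class, stood at 0.11 ± 0.34 (adjusted p = 0.858).

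Promoters of Plk2 and Scg2, 1 gene from each of these lists, are shown because both hold the cAMP response element, the palindrome TGACGTCA bound by CREB, the factor through which calcium and cAMP drive activity genes. The sequences are those of RefSeq on GRCr8, from 250 bases before to 50 bases after the annotated start, with the element in capitals.
Plk2, chr2:43702286-43702585, plus strand: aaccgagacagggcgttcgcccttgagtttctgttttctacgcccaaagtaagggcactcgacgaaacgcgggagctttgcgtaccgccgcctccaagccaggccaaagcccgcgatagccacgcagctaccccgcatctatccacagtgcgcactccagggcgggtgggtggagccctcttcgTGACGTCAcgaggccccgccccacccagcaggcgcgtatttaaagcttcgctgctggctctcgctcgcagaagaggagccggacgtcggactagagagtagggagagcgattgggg
Scg2, chr9:88256817-88257116, minus strand: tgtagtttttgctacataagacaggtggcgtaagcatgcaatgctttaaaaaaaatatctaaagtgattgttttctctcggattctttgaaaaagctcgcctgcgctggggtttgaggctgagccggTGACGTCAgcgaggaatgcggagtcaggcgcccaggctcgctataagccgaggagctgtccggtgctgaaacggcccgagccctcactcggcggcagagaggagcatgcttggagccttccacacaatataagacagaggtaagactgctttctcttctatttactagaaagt
The element was present in 1.83% of the 33469 rat promoters of this length, searched on both strands. It was found in 1 of 5 immediate early genes that rose and had a promoter in the table (Plk2), and in 2 of 5 risen peptide genes (Scg2 and Vgf). Over the whole lists it was found in 4 of 29 immediate early genes (Dusp1, Ier2, Jund and Plk2) and 3 of 17 peptide genes (Scg2, Sst and Vgf), so that Dusp1, Ier2, Jund and Sst held it without passing. List genes were counted if any of their promoters matched, whereas the 1.83% is a share of promoters. A match of letters is a description and not evidence of binding.

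Stress response genes moved in opposite directions. Of 44 measured genes of the integrated stress and unfolded protein responses, 4 rose and 5 fell, and the median change was 0.22. Those that rose include Chac1, known as a target of the ATF4 pathway, and Herpud1, which acts at the endoplasmic reticulum. Of those that fell, 4 are chaperones or cofactors of the endoplasmic reticulum. Whether the 2 directions follow separate pathways was not tested. Chac1, a glutathione-degrading enzyme induced by ATF4 and CHOP, read 8.14 and 8.64 in CA1 and 9.05 and 9.002 in CA3 at 3 h, against 10.44 and 9.60 in CA1 and 10.75 and 10.68 in CA3 at 12 h. Every 12 h value was above every 3 h value, and the rise of 1.66 ± 0.20 was 3.15-fold (adjusted p = 0.00804). Asparagine synthetase (Asns) rose by 1.41 ± 0.34 (adjusted p = 0.0474). Cebpg, a partner of ATF4 on DNA, rose by 0.81 ± 0.13 (adjusted p = 0.0136). Herpud1, a component of the machinery that degrades misfolded proteins of the endoplasmic reticulum, rose by 1.11 ± 0.18 (adjusted p = 0.0146).

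Chaperones and cofactors made up most of the genes that fell. Hsp90b1 (GRP94), the Hsp90 of the endoplasmic reticulum, read 9.56 and 9.93 in CA1 and 9.47 and 9.99 in CA3 at 3 h, against 8.50 and 8.98 in CA1 and 8.55 and 9.21 in CA3 at 12 h. The times did not overlap, and it fell by 0.93 ± 0.13, 1.9-fold (adjusted p = 0.00904). Dnajc3 (p58IPK), a co-chaperone that restrains PERK, fell by 1.20 ± 0.16 (adjusted p = 0.00928). Creld2 and Sdf2l1, both induced in the endoplasmic reticulum under misfolding, fell by 0.86 ± 0.12 (adjusted p = 0.0101) and 0.95 ± 0.17 (adjusted p = 0.0195). All 4 were lower on every 12 h array than on any 3 h array. The fifth was Phgdh, the serine synthesis enzyme, which fell by 0.70 ± 0.17 (adjusted p = 0.0491) with overlap and was named after its value was seen. Over the list, 1 to 6 genes rose and 2 to 5 fell when 1 array was left out, with the fewest rises without replicate 2 of CA1 at 3 h and the fewest falls without replicate 1 of CA1 at 12 h.

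The promoters of 2 genes that rose and 3 that fell are shown to set the motifs of these groups side by side. In Chac1 and Herpud1 the capitals mark TGATGNAA, the composite C/EBP-ATF site. In Hsp90b1, Dnajc3 and Creld2 they mark the endoplasmic reticulum stress element, CCAAT and CCACG with 9 bases of any kind between them. Either may lie on either strand, and the windows are as above.
Chac1, chr3:126795881-126796180, plus strand: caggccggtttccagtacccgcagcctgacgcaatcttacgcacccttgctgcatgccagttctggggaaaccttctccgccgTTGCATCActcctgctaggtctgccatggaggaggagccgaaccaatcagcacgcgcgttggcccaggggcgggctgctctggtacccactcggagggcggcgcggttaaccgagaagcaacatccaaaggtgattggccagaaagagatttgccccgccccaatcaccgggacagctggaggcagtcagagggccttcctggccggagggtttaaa
Herpud1, chr19:10614658-10614957, minus strand: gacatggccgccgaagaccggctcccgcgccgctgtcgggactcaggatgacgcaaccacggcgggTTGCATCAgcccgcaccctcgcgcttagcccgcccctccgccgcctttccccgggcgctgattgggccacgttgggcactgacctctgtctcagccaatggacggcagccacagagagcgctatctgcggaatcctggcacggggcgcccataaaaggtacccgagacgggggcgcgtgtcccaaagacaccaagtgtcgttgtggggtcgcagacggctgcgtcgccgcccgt
Hsp90b1, chr7:23012244-23012543, minus strand: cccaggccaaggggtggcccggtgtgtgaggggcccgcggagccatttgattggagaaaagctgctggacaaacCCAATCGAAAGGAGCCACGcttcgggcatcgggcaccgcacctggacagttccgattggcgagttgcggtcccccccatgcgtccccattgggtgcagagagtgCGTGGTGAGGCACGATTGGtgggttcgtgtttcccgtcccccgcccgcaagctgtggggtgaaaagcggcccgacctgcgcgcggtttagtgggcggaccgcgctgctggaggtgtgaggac
Dnajc3, chr15:102432417-102432716, plus strand: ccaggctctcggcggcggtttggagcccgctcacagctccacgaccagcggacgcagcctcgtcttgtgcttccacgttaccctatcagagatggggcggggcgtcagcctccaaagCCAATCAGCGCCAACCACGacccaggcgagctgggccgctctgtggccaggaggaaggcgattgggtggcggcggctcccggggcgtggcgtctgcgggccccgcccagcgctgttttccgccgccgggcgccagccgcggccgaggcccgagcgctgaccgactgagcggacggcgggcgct
Creld2, chr7:121789134-121789433, plus strand: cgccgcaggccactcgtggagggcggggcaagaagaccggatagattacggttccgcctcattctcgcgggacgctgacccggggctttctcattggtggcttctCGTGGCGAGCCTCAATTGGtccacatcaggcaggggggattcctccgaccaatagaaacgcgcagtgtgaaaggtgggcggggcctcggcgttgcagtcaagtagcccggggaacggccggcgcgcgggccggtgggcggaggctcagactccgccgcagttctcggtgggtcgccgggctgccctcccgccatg
The composite site was found in 2 of the 4 genes that rose, in 0 of the 5 that fell and in 3.98% of all promoters. The endoplasmic reticulum stress element was found in 3 of the 5 that fell, with 2 copies in Hsp90b1, in 0 of the 4 that rose and in 22 promoters of the table (0.0657%). Among the 39 list genes with a promoter, 7 held each motif. Here too a gene was counted if any of its promoters matched, whereas the percentages are shares of promoters. Genes with a motif also stood among those that did not pass: Aars1, Cars1, Nars1, Nupr1 and Trib3 held the composite site, and Calr, Canx, Hspa5 and Xbp1 the other. No gene of the list held an exact match to both. Only these exact letter patterns were searched, so variant forms of either element, with other letters or spacing, were not counted. The Herpud1 promoter above holds CCACG next to CCAAT of the other strand, at another spacing, and was counted as without the stress element.

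**Figure D3:**
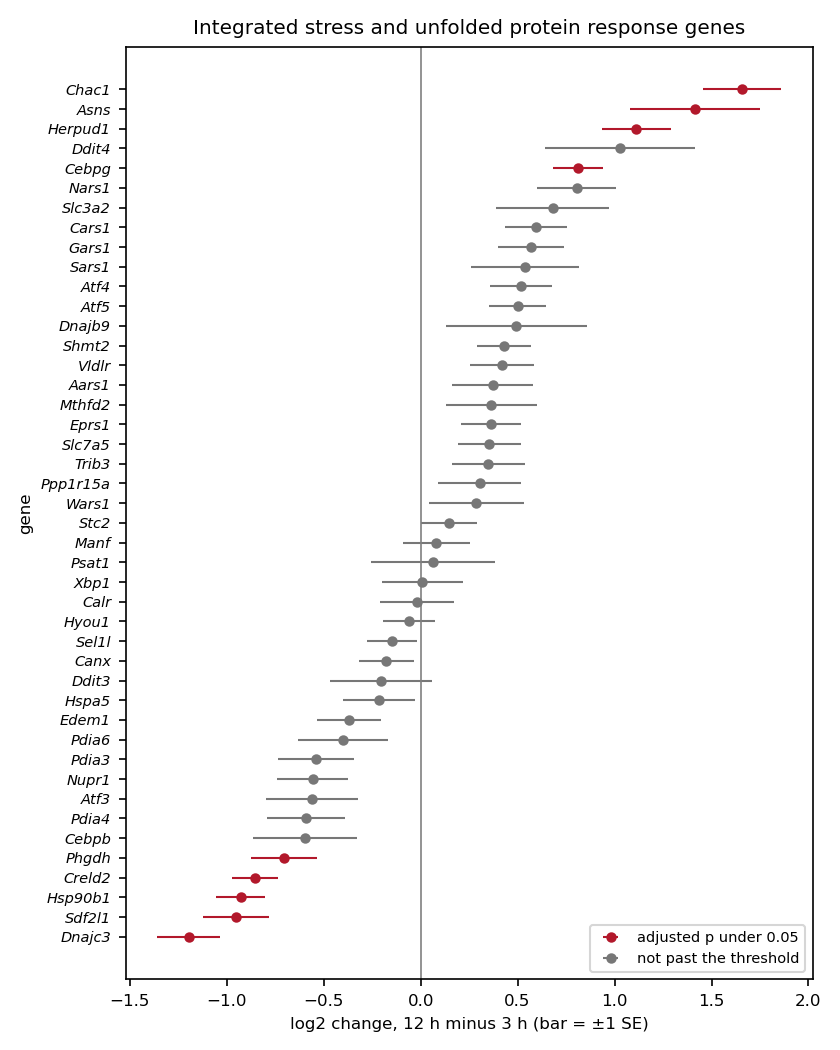
Log2 change from 3 h to 12 h with ±1 SE (x axis) of each measured gene of the integrated stress and unfolded protein responses (y axis), with the genes past the threshold marked apart from the others. The risen genes lie between 0.81 and 1.66, and the fallen ones between -1.20 and -0.70.

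Other stress programmes moved little by the test, at counts to be read against the 4.17% of all genes that rose and the 2.63% that fell. Of 23 genes of the NRF2 antioxidant response 1 fell and none rose (median -0.27). Osgin1, an oxidative stress induced growth inhibitor, fell by 1.28 ± 0.25 without overlap (adjusted p = 0.0269). Of 19 heat shock genes 2 rose, the co-chaperone Dnajb4 by 0.98 ± 0.19 (adjusted p = 0.0265) and the Hsp110 protein Hsph1 by 0.89 ± 0.19 (adjusted p = 0.0378), with a list median of 0.39. Of 23 p53 target and cell death genes 2 fell and none rose (median -0.07). Bcl2l11 (BIM), a pro-apoptotic BH3 protein, read 7.84 and 6.61 in CA1 and 7.83 and 7.29 in CA3 at 3 h, against 6.69 and 5.68 in CA1 and 6.78 and 6.35 in CA3 at 12 h, a change of -1.02 ± 0.16 (adjusted p = 0.0152), while its other probe sets did not pass. Caspase 1 (Casp1), the inflammasome protease, fell by 0.75 ± 0.18 (adjusted p = 0.0472). None of these 3 lists kept its count in every fit that left out 1 array: NRF2 genes had 0 to 3 falls, heat shock genes 0 to 3 rises and cell death genes 0 to 2 falls.

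Microglia markers fell. Of 16 measured microglia markers 12 fell and none rose, and the median change was -1.17. C1qc, a chain of the complement starter C1q, read 9.81 and 9.81 in CA1 and 9.97 and 8.84 in CA3 at 3 h, against 8.64 and 7.23 in CA1 and 8.66 and 7.11 in CA3 at 12 h. All 12 h arrays were below all 3 h arrays, and the change of -1.70 ± 0.25 was 3.24-fold (adjusted p = 0.0117). Lysozyme (Lyz2) fell by 1.62 ± 0.20 (adjusted p = 0.00804), the lysosomal protein Cd68 by 1.34 ± 0.19 (adjusted p = 0.0108) and C1qa by 1.21 ± 0.17 (adjusted p = 0.0106). The 4 markers that did not pass, named after their values were seen, were C1qb at -0.76 ± 0.22, P2ry12 at -0.39 ± 0.21, Itgam at -0.18 ± 0.20 and the fractalkine receptor Cx3cr1 at 0.02 ± 0.18.

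The marker list was lower at 12 h in both regions and both replicates. Its mean level was 8.42 and 7.84 in CA1 and 8.52 and 7.17 in CA3 at 3 h, against 7.37 and 6.32 in CA1 and 7.73 and 6.33 in CA3 at 12 h. Second replicates were lower than first ones at both times, and each 12 h array was below the 3 h array of its region and number. The list's median change lay between -0.88 and -1.34 in all settings tried. The calls were less steady: 2 to 11 markers fell when 1 array was left out, the fewest without replicate 1 of CA1 at 12 h, and 0 with the spike mean or the GAPDH difference as a covariate.

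The 14 largest falls include further genes known from macrophages and other blood-derived cells. Rgs1, a regulator of G protein signalling in immune cells, read 9.70 and 7.30 in CA1 and 8.57 and 6.51 in CA3 at 3 h, against 5.77 and 4.95 in CA1 and 5.41 and 4.72 in CA3 at 12 h. There was no overlap, and the change of -2.81 ± 0.31 was 6.99-fold (adjusted p = 0.00617). The chemokine Ccl6 fell by 2.69 ± 0.29 (adjusted p = 0.00604) and the interferon-induced membrane protein Ifitm1 by 2.45 ± 0.27 (adjusted p = 0.00617). Platelet factor 4 (Pf4), a chemokine also made by macrophages, fell by 2.01 ± 0.25 (adjusted p = 0.00804), and the chemokine receptor Cxcr4 by 1.88 ± 0.19 (adjusted p = 0.00549). Pf4 and Cxcr4 were the only ones of the 28 leading genes past the threshold without the replicate block, each at adjusted p = 0.0474 in limma.

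Ferroportin (Slc40a1), the cellular iron exporter, read 7.001 and 8.83 in CA1 and 8.92 and 8.34 in CA3 at 3 h, against 6.36 and 6.44 in CA1 and 6.66 and 6.13 in CA3 at 12 h. Its groups did not overlap, and it fell by 1.87 ± 0.38 (adjusted p = 0.0295), with a second probe set passing in the same direction. The macrophage perforin Mpeg1 fell by 1.59 ± 0.21 (adjusted p = 0.00904), Ms4a6bl1 by 1.62 ± 0.29 (adjusted p = 0.0187) and the RNA-editing deaminase Apobec1 by 1.79 ± 0.21 (adjusted p = 0.00804). The cytokine APRIL (Tnfsf13) fell by 1.74 ± 0.37 (adjusted p = 0.0347). Matrix Gla protein (Mgp), an inhibitor of calcification, fell by 1.89 ± 0.25 (adjusted p = 0.00904). Groups overlapped for the last 5 named.

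Inflammatory genes fell where they passed. Of 29 cytokine, chemokine and prostaglandin genes 4 fell and none rose, and 26 had a change below 0 (median -0.52). The adhesion molecule Icam1 read 8.39 and 6.86 in CA1 and 7.29 and 6.24 in CA3 at 3 h, against 5.99 and 5.76 in CA1 and 5.46 and 5.45 in CA3 at 12 h, a change of -1.53 ± 0.26 with no overlap (adjusted p = 0.0164). Nfkbia, the NF-kB inhibitor that NF-kB itself induces, fell by 1.12 ± 0.20 (adjusted p = 0.0215). The macrophage chemokines Ccl3 and Ccl4 fell by 1.52 ± 0.32 (adjusted p = 0.0344) and 1.19 ± 0.27 (adjusted p = 0.0394). The microglia markers fell beside these 4, and the part of microglial RNA in the falls was not tested. When 1 array was left out, 0 to 4 genes of the inflammatory list fell, none without replicate 1 of CA1 or of CA3 at 12 h.

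**Figure D4:**
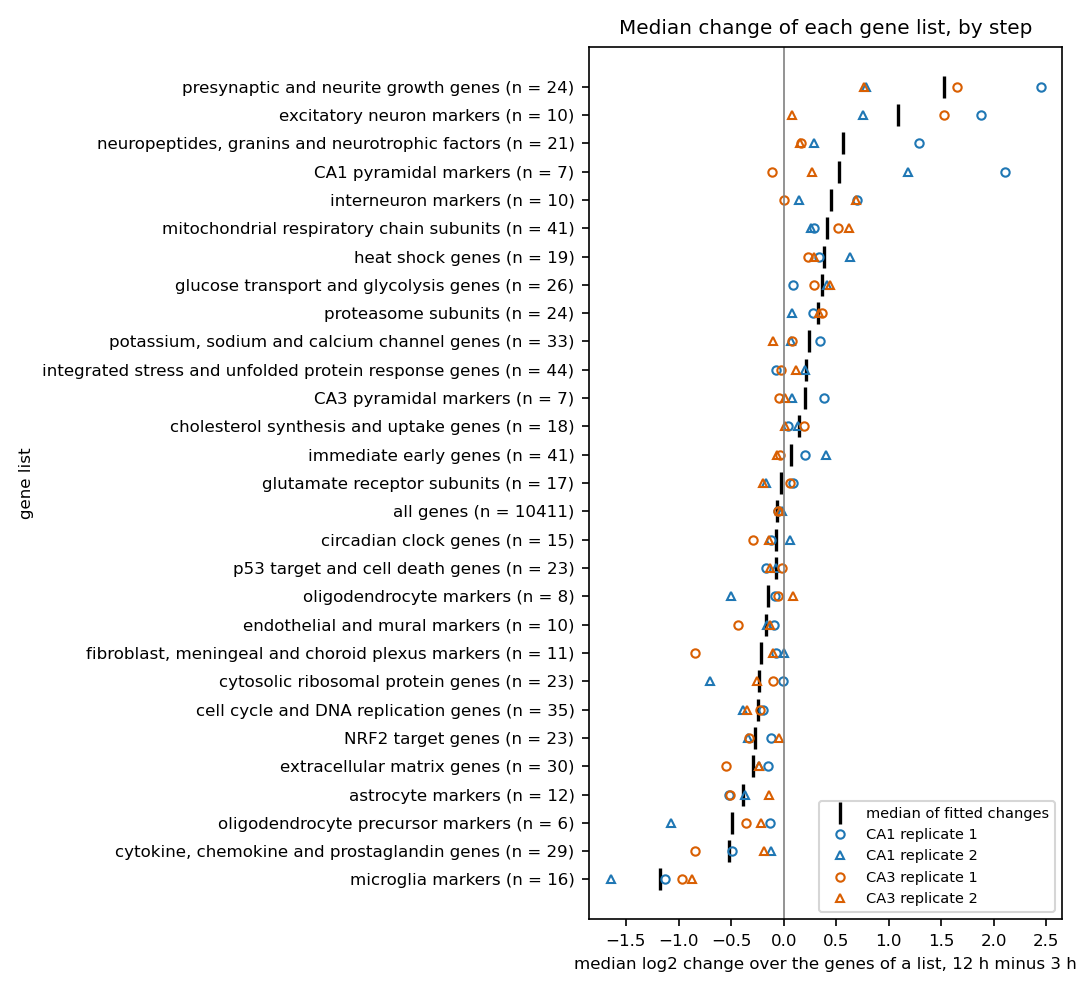
Median log2 change from 3 h to 12 h (x axis) of each gene list (y axis, with the number of genes measured). The black mark is the median of the fitted changes and the symbols are the medians within each of the 4 steps; presynaptic genes are highest at 1.53 and microglia markers lowest at -1.17.

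Markers of the other glia and of vessels did not pass. None of 12 astrocyte markers did (median -0.38, 11 below 0), with the gap junction protein Gja1 at -0.52 ± 0.15 (adjusted p = 0.0846) and Aldh1l1 at -0.43 ± 0.14 (adjusted p = 0.101). None of 8 oligodendrocyte markers passed (median -0.15, 0.19 with the GAPDH covariate), with claudin 11 (Cldn11) at -0.54 ± 0.18 (adjusted p = 0.111, 0.27 with the GAPDH covariate) and Mal at -0.33 ± 0.14 (adjusted p = 0.195). None of 6 oligodendrocyte precursor markers passed (median -0.49), with the PDGF receptor Pdgfra at -0.80 ± 0.25 (adjusted p = 0.0995) and Ptprz1 at -0.76 ± 0.26 (adjusted p = 0.121). Of 10 endothelial and mural markers none passed (median -0.17), and 7 of them had a mean log2 level under 5; Pecam1 stood at -0.33 ± 0.16 and Vwf at -0.22 ± 0.13. Fibroblast, meningeal and choroid plexus markers had 0 of 11 past the threshold (median -0.22), with Col1a2 at -0.79 ± 0.26 (adjusted p = 0.113) and decorin (Dcn) at 1.44 ± 0.65 (adjusted p = 0.233, -0.88 with the GAPDH covariate). Dcn is also on the list of CA1 pyramidal markers. Its change was fitted as 2.90 ± 0.61 in CA1 and -0.03 ± 0.61 in CA3, and neither passed.

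Few matrix and proliferation genes passed, at shares to be read against the 2.63% of all genes that fell. Of 30 extracellular matrix genes 2 fell and none rose (median -0.29): the fibrillar collagen Col5a2 by 0.60 ± 0.12 (adjusted p = 0.0279) and the hyaluronan receptor Cd44 by 0.60 ± 0.13 (adjusted p = 0.0381). Of 35 cell cycle and DNA replication genes 2 fell and none rose, with 30 below 0 (median -0.24). The phosphatase Cdkn3, which acts on cyclin-dependent kinases, read 5.81 and 5.79 in CA1 and 6.39 and 5.31 in CA3 at 3 h, against 4.78 and 4.14 in CA1 and 4.90 and 4.06 in CA3 at 12 h. Times did not overlap, and the change was -1.35 ± 0.18 (adjusted p = 0.00902). The mitotic kinesin Kif15 fell by 0.94 ± 0.16 (adjusted p = 0.0173). When 1 array was left out, 0 to 3 of the matrix genes and 1 to 5 of the cell cycle genes fell, in both lists the most without replicate 1 of CA1 at 3 h.

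Few energy metabolism genes passed, and those that did rose, at shares to be read against the 4.17% of all genes that rose. Of 26 glucose transport and glycolysis genes 2 rose and none fell (median 0.37, 0.02 with the spike covariate). Between 1 and 6 rose when 1 array was left out, the most without replicate 1 of CA1 at 3 h. The neuronal glucose transporter GLUT3 (Slc2a3) read 5.02 and 6.33 in CA1 and 5.05 and 7.29 in CA3 at 3 h, against 7.52 and 8.20 in CA1 and 8.03 and 9.01 in CA3 at 12 h. Its 12 h arrays were all higher, by 2.26 ± 0.24 or 4.8-fold (adjusted p = 0.00604). The neuron-specific enolase Eno2, also a member of the presynaptic list, rose by 1.31 ± 0.26 (adjusted p = 0.0274). Both genes are known as neuronal, and 4 of the 10 excitatory neuron markers rose beside them. Of 41 respiratory chain subunits 4 rose, none fell and 37 were above 0 (median 0.42). The count of risen subunits went from 0 to 14 when 1 array was left out, the most without replicate 1 of CA1 at 3 h, and was 0 with either the spike or the GAPDH covariate, while the median lay between 0.27 and 0.57. Cox5b, a subunit of cytochrome oxidase, read 9.53 and 9.01 in CA1 and 9.31 and 9.23 in CA3 at 3 h, against 10.12 and 9.84 in CA1 and 10.31 and 10.07 in CA3 at 12 h, a rise of 0.82 ± 0.13 without overlap (adjusted p = 0.0157). Cox8a of the same complex rose by 0.84 ± 0.19 (adjusted p = 0.0436), Ndufa8 of complex I by 1.07 ± 0.18 (adjusted p = 0.0173) and Ndufa4 by 0.80 ± 0.19 (adjusted p = 0.0465, -0.22 with the GAPDH covariate).

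Receptors and channels for neuronal signalling hardly passed, where 4.17% of all genes rose and 2.63% fell. Of 17 glutamate receptor subunits 1 fell and none rose, with a median of -0.02 that was 0.06 after quantile or cyclic loess normalization and 0.27 with the spike covariate. Grm3, a metabotropic receptor found on astrocytes as well as neurons, read 6.83 and 6.91 in CA1 and 6.82 and 5.78 in CA3 at 3 h, against 5.81 and 5.46 in CA1 and 5.30 and 5.21 in CA3 at 12 h, a change of -1.14 ± 0.19 with overlap (adjusted p = 0.017). None of 33 potassium, sodium and calcium channel genes passed (median 0.24), with the sodium channel Scn3a at 0.71 ± 0.18 (adjusted p = 0.0558) and the calcium channel subunit Cacnb2 at 1.28 ± 0.35 (adjusted p = 0.0713). A dimmer probe set of Cacnb2 did pass, at 0.98 ± 0.21 (adjusted p = 0.0365), and a further one stood at -0.04.

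Housekeeping and clock lists held no gene past the threshold. Cytosolic ribosomal proteins had 0 of 23, and their median of -0.23 changed sign to 0.25 with the GAPDH covariate and 0.02 with the spike covariate; Rps24 stood at -0.86 ± 0.23 (adjusted p = 0.0654) and Rpl12 at -0.61 ± 0.18 (adjusted p = 0.0808, 0.14 with the GAPDH covariate). Proteasome subunits had 0 of 24 (median 0.32), led by Psmb7 at 0.96 ± 0.27 (adjusted p = 0.077) and Psmc1 at 0.60 ± 0.20 (adjusted p = 0.11). Cholesterol synthesis and uptake genes had 0 of 18 (median 0.14, -0.03 with the spike covariate), with Sc5d at 0.84 ± 0.26 (adjusted p = 0.101) and Msmo1 at 0.74 ± 0.31 (adjusted p = 0.195). Circadian clock genes had 0 of 15 (median -0.07, 0.01 after cyclic loess), with Dbp at -0.60 ± 0.15 (adjusted p = 0.0503) and Cry2 at 0.41 ± 0.16 (adjusted p = 0.172, -0.03 with the spike covariate).

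Probe sets other than the one used were a check on the named genes. Of 72 named genes that passed, 16 had other probe sets, 20 in all. Of these 20, 4 passed in the same direction and 0 in the other, 13 had the same sign and 7 the opposite sign. The 7 lay between -0.30 and 0.30 in change and belong to Cebpg, Egr2, Slc2a3, Stx1a, Sv2b, Tubb3 and Vamp2.

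The series compares CA1 with CA3 through time, and the step itself was compared between them. Taken alone, neither region passed for any probe set: 0 (0%) in CA1 (smallest adjusted p = 0.0814, 1963 at an unadjusted p under 0.05) and 0 (0%) in CA3 (0.0892 and 1919), with 2 arrays a group in limma. No probe set (0%) passed in the difference of the steps (smallest adjusted p = 1), and 185 had an unadjusted p under 0.05. That the difference missed the threshold does not show that the regions moved alike. The 4 genes with the smallest p are given as values. Fos read 8.83 and 9.71 in CA1 and 10.05 and 10.93 in CA3 at 3 h, against 10.10 and 10.44 in CA1 and 9.17 and 10.26 in CA3 at 12 h. It went up in both CA1 steps and down in both CA3 steps, and the CA1 change minus the CA3 change was 1.77 ± 0.34. For the CA1 transcription factor Pou3f1 this difference was 2.16 ± 0.43, for the ciliary gene Cfap90 1.39 ± 0.30 and for Lurap1l -1.42 ± 0.31.

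Changes fitted in each region are given for 5 genes that passed over both regions, chosen after their values were seen; none passed in 1 region. The change of Nrn1 was fitted as 3.58 ± 0.60 in CA1 and 2.48 ± 0.60 in CA3, a difference of 1.10 ± 0.84 that did not pass. That of Plk2 was 3.42 ± 0.64 and 2.15 ± 0.64, that of Chac1 1.63 ± 0.31 and 1.69 ± 0.31, and that of C1qc -1.87 ± 0.37 and -1.52 ± 0.37. For Rgs1 the values were -3.14 ± 0.43 in CA1 and -2.48 ± 0.43 in CA3.

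**Figure D5:**
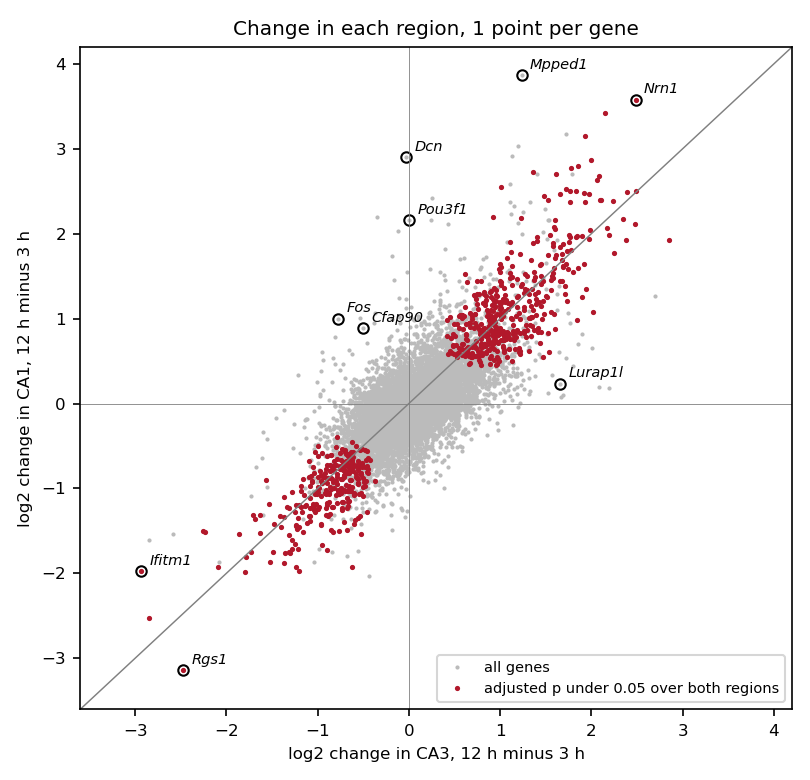
Log2 change from 3 h to 12 h in CA1 (y axis) against that in CA3 (x axis), 1 point per gene, with the 708 genes past the threshold over both regions in red. All 708 lie in the quadrants where both changes have the same sign, which passing over both regions favours. The 4 genes with the smallest p for the region difference and 5 others are labelled.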

How the data were processed

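The deposited log2 expression values of an Affymetrix rat array were produced by the authors with RMA, the tool that the submitters' processing notes name; its version was not given in the sources used here. Of 15923 deposited probe sets 57 are controls and stayed out of the tests. GEO's platform annotation gave 12783 of the 15866 others 1 gene symbol, 312 several and 2771 none, and 12748 matched RefSeq (GRCr8) by Entrez ID. Array medians lay between 5.814 and 5.941. The number of arrays limits the precision.

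From these values limma 3.58.1 in R 4.3.3 fitted time, region and replicate number over 8 arrays (4 residual and 4.27 prior degrees of freedom), with Benjamini-Hochberg adjustment. A fit of the 4 group means plus replicate number gave the change in each region and its difference. The p-values measure the spread that is left between arrays once time, region and replicate number are taken out. They do not measure the whole spread between arrays called biological replicates. The numbers may pair the arrays: deviations of same-numbered arrays correlated at 0.38 to 0.66 over all 6 pairs of groups.

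Named genes are the 14 largest rises and 14 largest falls past the threshold with 1 sign in all 4 steps, up to 4 passing members a list and direction (2 where none passed), and the 4 smallest p for the region difference. The text does not report 1 of the 14 falls. Members, the 28 lists (583 of 700 genes measured) and rules were chosen with earlier results of these data known. The fits were also run on simulated data. These data held no effect of replicate number, unlike the arrays, so the runs are not used as support here. Alternatives changed the block, arrays, normalization, variance prior, filter on dim probe sets and covariates.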

Additional observations from a re-analysis of the deposited data

Results flagged for a closer look

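Fos, the immediate early transcription factor, and Cfap90, a cilium-associated gene, moved in opposite directions in the 2 regions. In both, each CA1 step from 3 h to 12 h was above 0 and each CA3 step below 0, and the CA1 change minus the CA3 change was 1.77 for Fos and 1.39 for Cfap90. The test of this difference in limma gave adjusted p = 1 for each, so neither passed. Of 10411 genes, 565 had opposite steps of this kind in the 2 regions.

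Over the immediate early genes, the median change in CA1 was above that in CA3 by 0.45, with both CA1 steps opposite in sign to both CA3 steps. The difference of the list was not tested.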

How the results depend on the processing

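The 965 probe sets fell to 40 without the replicate block (2 of the 28 leading genes passed), and to 0 when the regions of 1 time and number were averaged, with the replicate block (2802 at an unadjusted p under 0.05 and 0.167 as the smallest adjusted p) or without it (1197 and 0.636), or kept as a random block without the replicate block (1611 and 0.0506). The random block together with the replicate block, added after seeing the data, gave 2092. The fitted correlation between arrays of 1 time and number was -0.248 there, against 0.301 without the replicate block. With covariates 565 (spike mean) and 63 (GAPDH difference) passed. Little of the GAPDH difference is left once time and replicate number are in the fit. Leaving out 1 array gave 188 to 1303, a move of over 1.5 times for 7 of 8 arrays; all but CA1 at 3 h replicate 1 did so. Leaving out both second arrays of 1 time gave 738 (12 h) or 733 (3 h). Both of these fits estimate the step from the first replicates alone, so they are not separate checks. The other counts were 902 with 12 arrays, 952 and 1055 after quantile and cyclic loess normalization, 1056 of 7933 in the brighter probe sets, 968 with an intensity trend and 953 with a robust prior. The cause of these moves was not tested. In CA1 alone 34 passed with the intensity trend and 0 to 8 when 1 array was left out. In CA3 alone 5 passed in the brighter probe sets, 9 with the trend and 0 to 11 when 1 array was left out. The region difference stayed at 0 in every fit run. Named genes changed sign with the GAPDH covariate for Cldn11 (0.27), Dcn (-0.88), Sv2b (0.08), Ndufa4 (-0.22) and Rpl12 (0.14), and with the spike covariate for Cry2 (-0.03). Detection calls were not used here, so probe sets of low level can be at background.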
